A study of Mus musculus with 10 samples.

Results

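Fatty acids reach the matrix of the mitochondrion by uptake, activation to coenzyme A esters and the carnitine shuttle, and are then shortened by a cycle of dehydrogenation, hydration, a further dehydrogenation and thiolytic cleavage. Electrons leave the cycle through electron transfer flavoprotein and through NADH. In islets, fatty acids are known as a fuel and as signals that modify hormone secretion. The 31 genes described here encode the proteins of these steps and were chosen by name, for their function, from the 19213 gene entries of a table of transcript levels. All 31 were in the table, all are protein coding in the GENCODE annotation, and 30 of them were among the 12700 genes that reached 1 RPKM in 2 or more libraries and were tested. RPKM is the number of reads on a gene scaled to its length in kilobases and to the depth of its library.

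RNA was sequenced from cells sorted out of the pancreatic islets of adult mice. The delta group, the cells that secrete somatostatin, had 2 libraries (replicate 1 male, replicate 2 female), from animals carrying Sst-Cre. The alpha group, the cells that secrete glucagon, had 3 libraries (replicates 1 and 2 male, replicate 3 female), from animals carrying Gcg-cre. In both, Cre under the named promoter switched on a floxed YFP allele, and the sorted cells were YFP positive. The beta group, the cells that secrete insulin, had 5 libraries (replicates 1 and 3 male, replicates 2, 4 and 5 female), sorted by the mIns1-H2b-mCherry transgene that all animals carried, and came from islets that also gave delta or alpha cells. No age beyond adult and no strain background was given. Each pool held islets from 10 to 12 animals of 1 sex, kept overnight in 5.5 mM glucose, so each library stands for cultured islets. Library totals ran between 16688097 and 26684086 reads, and 1 RPKM equalled 16.7 to 26.7 reads per kilobase.

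By Sst, Gcg and Ins2 the sorts matched their labels. Pyy and Ppy, listed as markers of pancreatic polypeptide cells, were also high in delta libraries. Pyy was 26057 and 27812 RPKM in delta, 5080 to 8706 RPKM in alpha and 359 to 626 RPKM in beta libraries. Ppy was 18106 and 16986, 4517 to 6535 and 449 to 934 RPKM in the same order. Of the 3 markers listed, 2 were called higher and 1 lower in delta than in alpha cells. Which cells carried these transcripts was not tested. Sst was 52388 and 60770 RPKM in delta libraries, 1080 to 2937 RPKM in alpha libraries and 99.6 to 922 RPKM in beta libraries. Gcg was 21254 to 23233 RPKM in delta libraries, 244207 to 272196 RPKM in alpha libraries and 464 to 2852 RPKM in beta libraries. The delta level of Gcg was thus 8.33% and 9.11% of the alpha mean, whereas Ins2 was 2124 to 2998 RPKM in delta libraries, 1617 to 2048 RPKM in alpha libraries and 177833 to 363484 RPKM in beta libraries. Reads of 7 hormone genes took 9.81% and 10.6% of delta libraries, 27.5% to 30.9% of alpha libraries and 17.6% to 31.8% of beta libraries, and RPKM are shares of the library. The median log2 difference over all tested genes was 0.25 for delta minus beta, -0.02 for alpha minus beta and 0.26 for delta minus alpha. After scaling each library by its median ratio to the others these became -0.001, -0.01 and -0.01. With totals that leave out the 7 hormone genes they were 0.06, 0.06 and -0.02. Acinar cell markers, of which 8 were in the table, summed to 658 to 844 RPKM in delta, 84.7 to 3093 RPKM in alpha and 201 to 9862 RPKM in beta libraries, and none of the 8 was called between types.

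The 31 genes together had a summed level of 793 and 811 RPKM in delta libraries, 632 to 663 RPKM in alpha libraries and 894 to 999 RPKM in beta libraries. Hadh and Lpl took much of the difference of delta and alpha libraries from beta libraries, but little of that between delta and alpha libraries. Hadh made up 21.9% and 23.7% of the sum in delta libraries, 1.45% to 2% in alpha libraries and 27.5% to 38.8% in beta libraries. Lpl made up 2.5% and 2.19% in delta libraries, 25.8% to 28.5% in alpha libraries and 5.92% to 11.8% in beta libraries. Without the pair, the sum was 599 and 601 RPKM in delta libraries, 455 to 470 RPKM in alpha libraries and 547 to 596 RPKM in beta libraries. After median-ratio scaling the sum of all 31 was 660 and 695 RPKM in delta libraries, 668 to 711 RPKM in alpha libraries and 847 to 1141 RPKM in beta libraries, so that delta and alpha libraries overlapped. The sum without the pair was then 499 and 515 RPKM in delta libraries, 472 to 514 RPKM in alpha libraries and 525 to 687 RPKM in beta libraries, so the delta libraries, above every beta library as deposited, lay below every beta library after this scaling. Most of the pathway was transcribed in every cell type: 30 of the 31 genes averaged at least 1 RPKM in each type, and 22 in delta, 18 in alpha and 19 in beta cells averaged at least 10 RPKM.

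**Figure D1:**
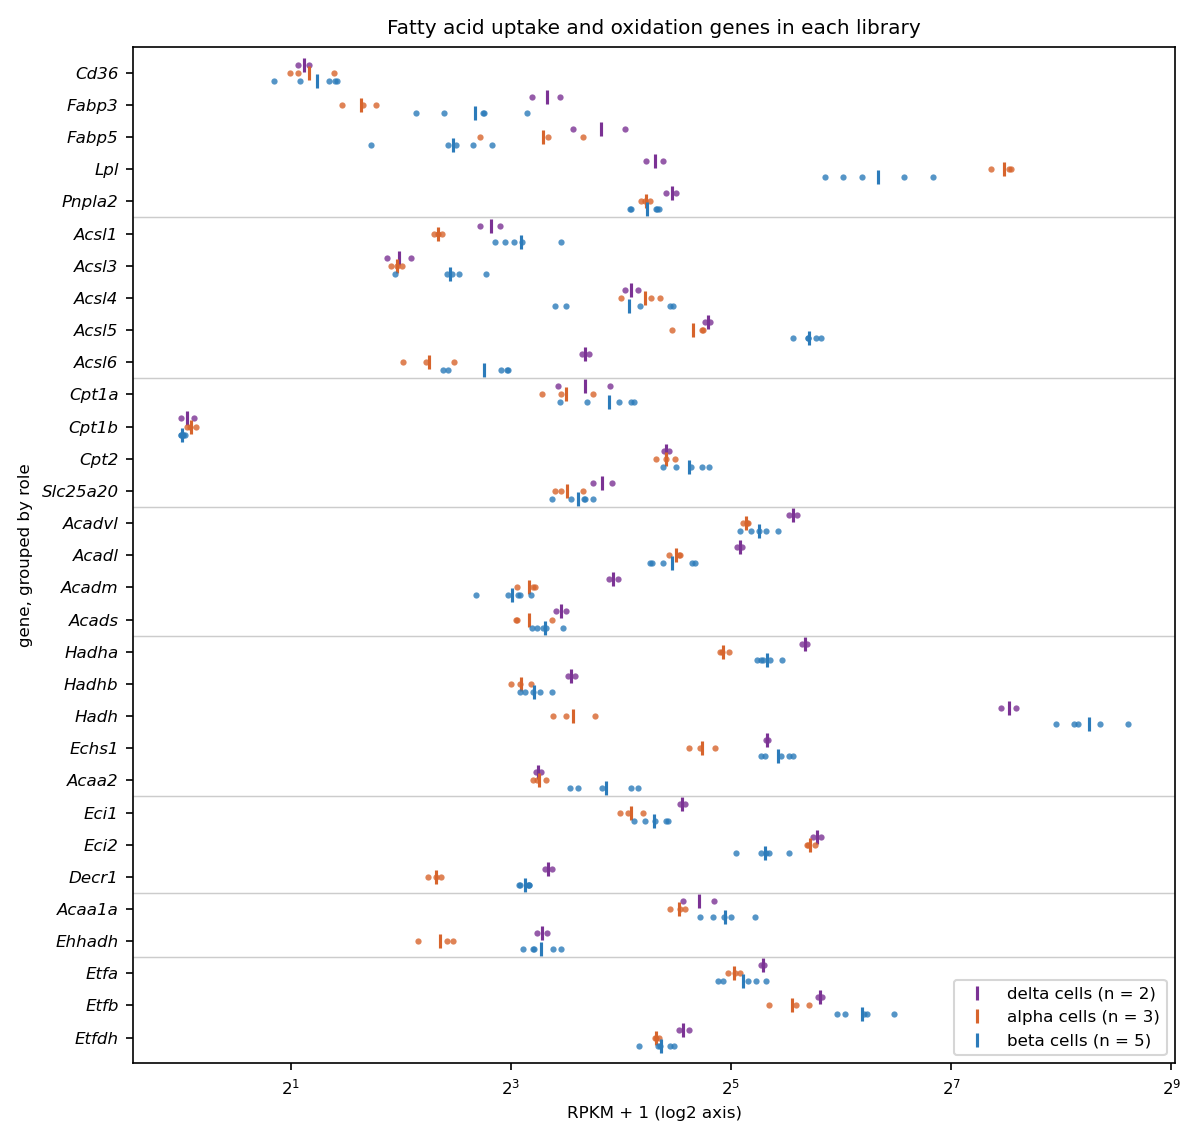
RPKM + 1 on a log2 axis for the 31 genes, 1 row per gene in the order of their roles, with delta above alpha above beta within a row; dots are single libraries and vertical bars are group means (n = 2, 3 and 5). Hadh is far to the left in alpha cells, Lpl far to the right in alpha cells, and Cpt1b sits at the left edge in every type.

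The tests were made with limma on log2(RPKM + 1), with cell type and sex in 1 fit of all 10 libraries, and p-values were adjusted over all 12700 tested genes by the Benjamini-Hochberg method. Fold changes on this scale understate the change of genes with low values. A gene was called at an adjusted p under 0.05. Between delta and beta cells, 9 of the 30 tested genes were called higher in delta cells, where 37.4% of all tested genes were, and 5 were called lower, where 13.3% of all tested genes were. Their median log2 difference of 0.16 lay beside the 0.25 of all genes. Between alpha and beta cells, 3 were called higher in alpha cells against 23.7% of all tested genes, and 12 were called lower against 30.3% of all tested genes, with a median of -0.23 beside -0.02 for all genes. Between delta and alpha cells, 13 were called higher in delta cells against 32.1% of all tested genes and 1 was called lower against 5.89% of all tested genes, with a median of 0.33 beside 0.26 for all genes. The comparisons share libraries pairwise, so their counts are not independent of each other.

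The counts that involve delta cells depended on the scaling. After median-ratio scaling, delta cells had 4 genes called higher and 11 called lower relative to beta cells, against 3120 and 3096 of all tested genes, and 6 were called higher and 1 lower in delta than in alpha cells, against 1846 and 1324 of all tested genes. The genes called higher in delta than in beta cells under both scalings were Acadl, Acadm, Acsl6 and Fabp5, and those called lower under both were Acaa2, Acsl5, Etfb, Hadh and Lpl. Called lower only after the scaling were Acaa1a, Acsl1, Acsl3, Cpt1a, Cpt2 and Echs1. Those called higher in delta than in alpha cells under both were Acadm, Acsl6, Decr1, Ehhadh, Fabp3 and Hadh, and Lpl was called lower under both. For alpha against beta cells, 3 were called higher and 13 lower after median-ratio scaling, against 3533 and 3680 of all tested genes, and 11 of the 12 lower genes were shared.

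With 2 delta libraries the calls also depended on each of them. Without delta replicate 1, 4 genes were called higher and 2 lower than in beta cells, and 8 were called higher than in alpha cells. Without delta replicate 2 these counts were 3, 5 and 8. Calls over all tested genes were also fewer, at 2335 higher and 938 lower than in beta cells and 2181 higher than in alpha cells without delta replicate 1, and at 3219, 1072 and 2477 without delta replicate 2. Acadl, Acadm and Acsl6 stayed higher and Acsl5 and Lpl lower than in beta cells in both cases. Libraries of different sex came from different pools, whereas the labels do not say whether libraries of 1 type and sex did. Alpha replicates 1 and 2 have the same number, 9, in their titles, and beta replicates 4 and 5 the same number, 12. The spread that p-values rest on may thus be partly technical, and the n of 3 and 5 may overstate the independent pools. Exons of Fabp3, Acsl1, Acsl5, Acsl6, Acadvl, Hadha, Echs1, Eci2, Acaa1a and Etfdh overlap another annotated gene on the opposite strand, and those of Acsl3, Cpt1b and Etfb overlap one on the same strand; the library kit does not mark the strand, so the values of these 13 genes may include reads of the other gene.

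**Figure D2:**
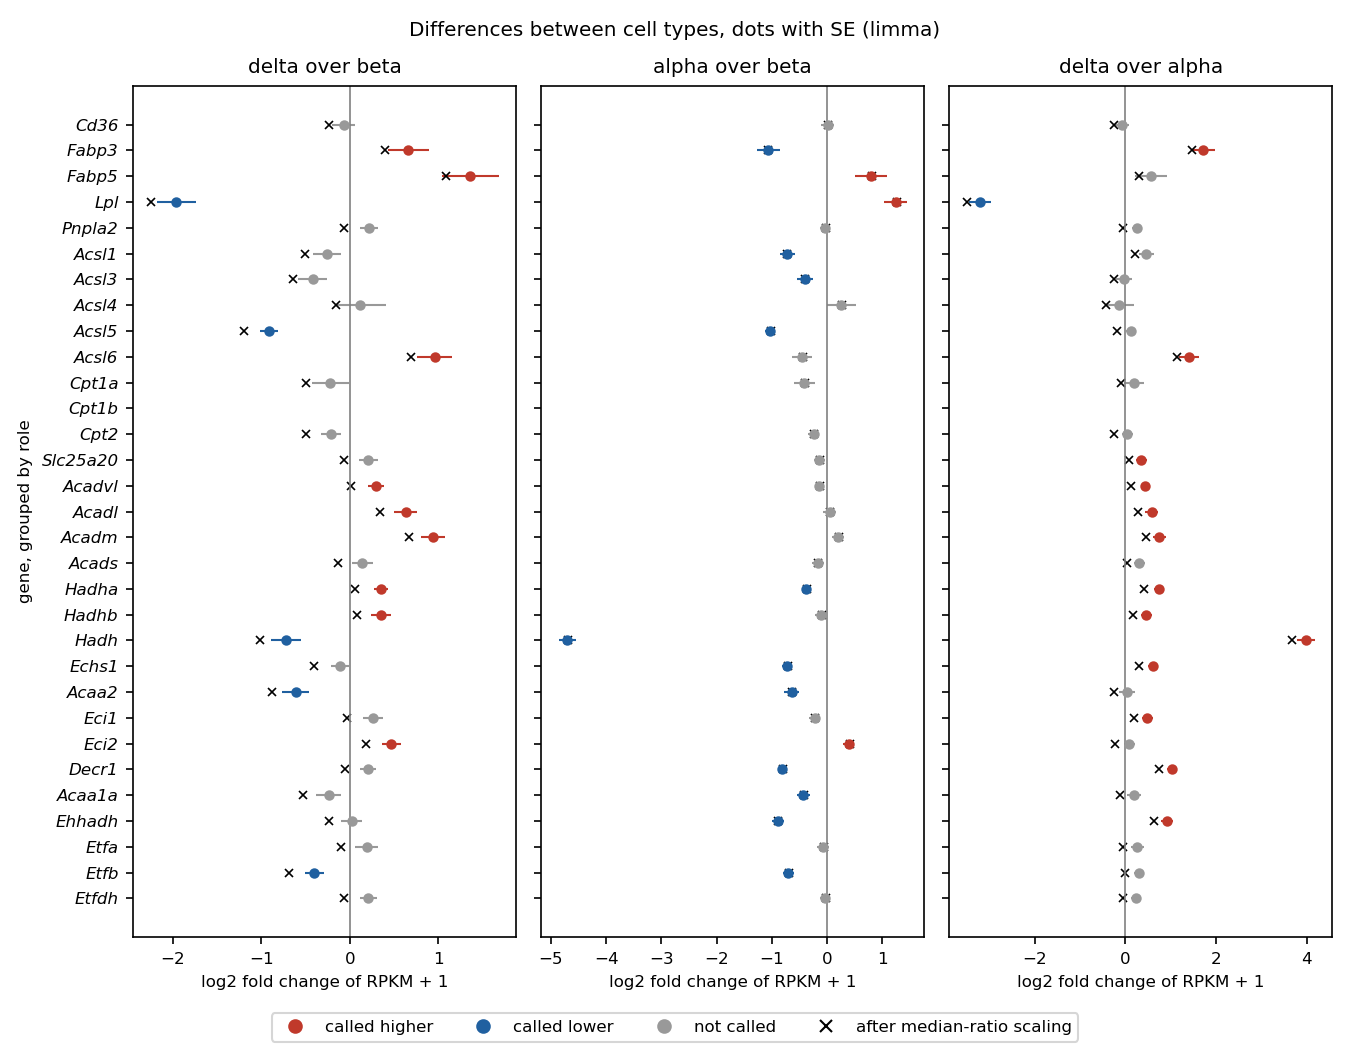
Log2 fold change of RPKM + 1 for each of the 30 tested genes, in the order of their roles, for delta over beta, alpha over beta and delta over alpha; dots carry the SE from limma, with red for called higher, blue for called lower and grey for not called, and crosses give the value after median-ratio scaling. In the outer panels the crosses stand to the left of the dots; in the middle panel they coincide.

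Uptake and supply of fatty acids differed most in Lpl. Lpl encodes lipoprotein lipase, a secreted enzyme that frees fatty acids from the triglycerides of lipoproteins (chromosome 8, 68880491 to 68907448, plus strand, GRCm38), and its exons overlap those of no other annotated gene. Lpl was 19.9 and 17.7 RPKM in delta libraries, 163, 183 and 185 RPKM in alpha libraries, and 56.8, 63.7, 71.8, 113 and 93.8 RPKM in beta libraries. Every alpha library lay above every beta library, and every beta library above both delta libraries. The group means of 18.8 ± 1.5, 177 ± 12.4 and 79.9 ± 23.3 RPKM (SD, n = 2, 3 and 5) placed Lpl at rank 4110, 133 and 686 among all genes of delta, alpha and beta cells. By limma with Benjamini-Hochberg adjustment the log2 fold change was -1.96 (SE 0.22, adjusted p = 9.33e-05) for delta over beta, 1.24 (SE 0.20, adjusted p = 0.000659) for alpha over beta, and -3.21 (SE 0.24, adjusted p = 1.01e-05) for delta over alpha.

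The Lpl level of delta libraries was 11.2% and 10% of the alpha mean, close to the 8.33% and 9.11% found for Gcg. When an alpha share set by Gcg was subtracted from the delta libraries, 5.58 and 1.78 RPKM of Lpl were left and the log2 fold change of delta over beta became -4.19. Adipocytes and macrophages also make the lipase. The 5 adipocyte markers in the table summed to 0.139 to 0.190 RPKM in delta, 0 to 0.106 RPKM in alpha and 0.0457 to 0.195 RPKM in beta libraries, with Adipoq, Plin1 and Cidec at 0 in every alpha library. The 10 macrophage and immune markers summed to 75.7 to 89.0 RPKM in delta, 22.7 to 41.4 RPKM in alpha and 108 to 203 RPKM in beta libraries. Of the 8 immune markers tested, 7 were called lower in delta and 8 lower in alpha than in beta cells. The eighth, C1qa, was higher in delta cells and made up most of the delta sum, at 57.7 and 73.5 RPKM in delta libraries, 11.1 to 17.7 RPKM in alpha libraries and 21.1 to 40.2 RPKM in beta libraries. Their part in the beta level of Lpl was not tested. In sorted pools, fewer cells with a transcript and less of it per cell cannot be told apart.

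**Figure D3:**
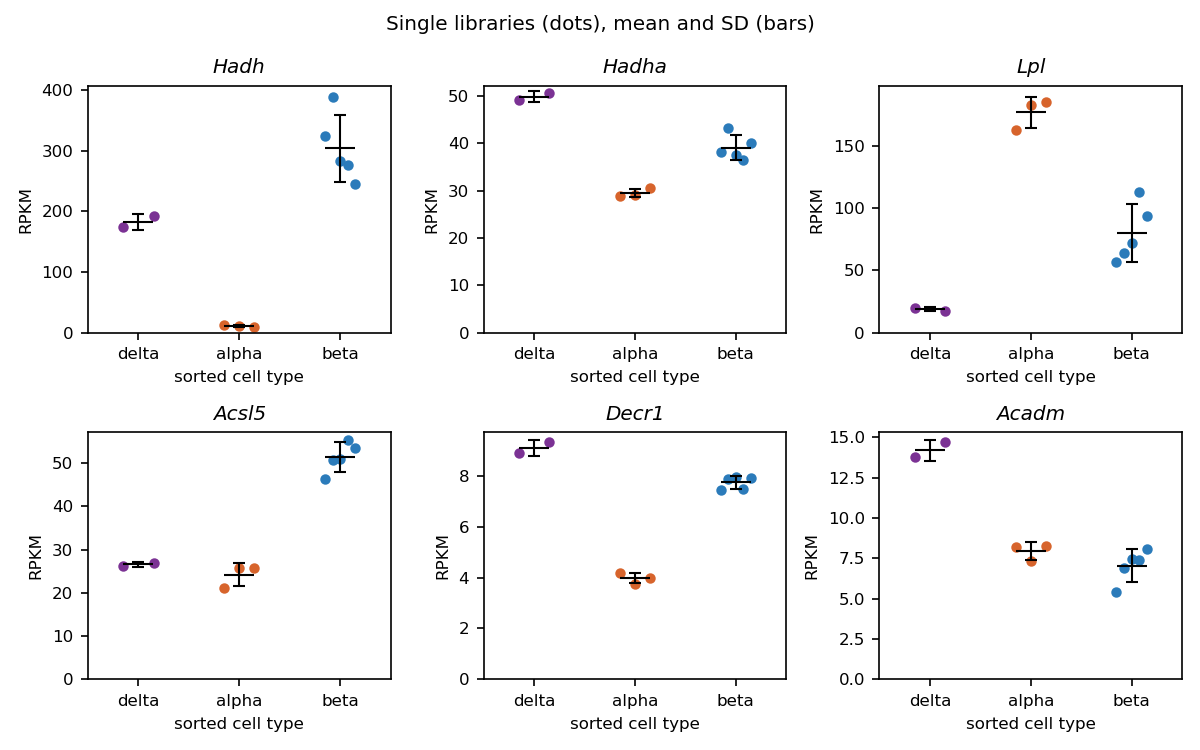
RPKM of Hadh, Hadha, Lpl, Acsl5, Decr1 and Acadm in each library, on axes that start at 0; dots are libraries of delta, alpha and beta cells from left to right (n = 2, 3 and 5), and bars are the mean with its SD. Hadh and Decr1 are lowest in alpha cells, Lpl is highest there, Acsl5 is highest in beta cells, and Acadm is highest in delta cells.

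Both intracellular carriers were called higher for delta over beta cells, but neither call held under every setting. Fabp3, the heart-type fatty acid binding protein, was 8.12 and 9.93 RPKM in delta libraries, 2.43, 1.76 and 2.15 RPKM in alpha libraries, and 7.87, 5.76, 5.72, 4.24 and 3.40 RPKM in beta libraries. The alpha libraries lay below all others, and both delta libraries above all beta libraries, the lower one by a small margin. It was called lower in alpha than in beta cells (log2 fold change -1.06, SE 0.21, limma adjusted p = 0.00231) and higher in delta than in alpha cells (1.72, SE 0.25, adjusted p = 0.000701). Its call in delta over beta cells (0.66, SE 0.23, limma adjusted p = 0.0384) was lost under median-ratio scaling (0.40, adjusted p = 0.260) and when any of 6 libraries was left out, namely both delta libraries, alpha replicates 1 and 3 and beta replicates 3 and 4.

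Fabp5, the epidermal-type binding protein, was 10.8 and 15.4 RPKM in delta libraries, 5.60, 11.6 and 9.08 RPKM in alpha libraries, and 4.68, 2.32, 6.09, 4.38 and 5.31 RPKM in beta libraries. Both delta libraries lay above every beta library, whereas 1 alpha library fell within the beta range. The log2 fold change was 1.36 for delta over beta (SE 0.32, limma adjusted p = 0.00737; 0.113 without delta replicate 2) and 0.79 for alpha over beta (SE 0.29, adjusted p = 0.0427). The alpha call was lost without either delta library, alpha replicate 2 or 3, or beta replicate 1 or 4. Cd36, the scavenger receptor that takes up long-chain fatty acids, was low everywhere, at 1.25 and 1.10 RPKM in delta, 0.996 to 1.62 RPKM in alpha and 0.803 to 1.67 RPKM in beta libraries, and was not called in any comparison of cell types. The 8 endothelial markers, a cell type that also transcribes Cd36, summed to 11.9 to 15.3 RPKM in delta, 8.06 to 10.6 RPKM in alpha and 6.33 to 11.7 RPKM in beta libraries, and 6 of the 8 averaged under 1 RPKM in each type. Esam alone made up most of the delta sum, at 7.1 and 8.02 RPKM in delta, 5.91 to 6.45 RPKM in alpha and 2.92 to 4.57 RPKM in beta libraries. Also not called was Pnpla2, the adipose triglyceride lipase that releases fatty acids from lipid droplets, at 20.3 and 21.7 RPKM in delta, 17.2 to 18.2 RPKM in alpha and 15.9 to 19.3 RPKM in beta libraries.

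Activation to acyl-CoA is carried out by the long-chain acyl-CoA synthetases, and each cell type had its own mixture of the 5 genes. Their summed level was 63.6 and 63.4 RPKM in delta libraries, 45.9, 56.0 and 55.6 RPKM in alpha libraries, and 69.3, 76.6, 86.3, 98.2 and 94.3 RPKM in beta libraries. As deposited the types did not overlap, but after median-ratio scaling the delta libraries (53 and 54.3 RPKM) lay within the alpha range (51.7 to 57.6 RPKM), below the beta range (82.5 to 97.7 RPKM). Acsl5 was the largest contributor in all 10 libraries, with 41.2% and 42.6% of the family's RPKM in delta libraries, 45.8% to 46.3% in alpha libraries and 56.4% to 66.9% in beta libraries. Acsl4 held 26.4% and 24.3% in delta libraries, 32.7% to 34.6% in alpha libraries and 13.5% to 22.1% in beta libraries. Acsl6 held 18.0% and 19.1% in delta libraries, against 6.57% to 8.26% in alpha libraries and 5.74% to 7.92% in beta libraries. These shares do not depend on the scaling of the libraries.

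**Figure D4:**
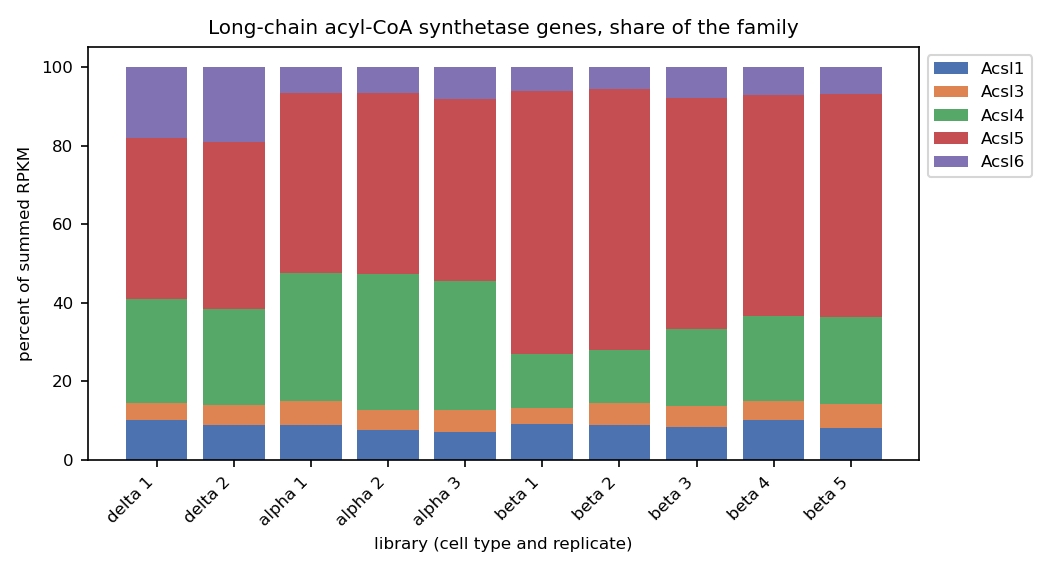
Share of each of the 5 long-chain acyl-CoA synthetase genes in their summed RPKM, in percent, with 1 bar per library from delta through alpha to beta. The Acsl6 share is 18.0% and 19.1% in the delta bars and below 10% in the others, and the Acsl5 share is 56.4% to 66.9% in the beta bars and below 50% in the others.

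Acsl5, a synthetase of the mitochondrial outer membrane and endoplasmic reticulum, was 26.2 and 27.0 RPKM in delta libraries, 21.1, 25.8 and 25.7 RPKM in alpha libraries, and 46.4, 50.8, 50.9, 55.4 and 53.5 RPKM in beta libraries. All beta libraries lay well above the rest. Its log2 fold change was -0.91 for delta over beta (SE 0.10, limma adjusted p = 6.55e-05) and -1.03 for alpha over beta (SE 0.09, adjusted p = 1.19e-05). Acsl1, the main synthetase of fat, heart and liver, was 6.49 and 5.59 RPKM in delta libraries, 4.05, 4.20 and 3.92 RPKM in alpha libraries, and 6.25, 6.71, 7.16, 9.95 and 7.58 RPKM in beta libraries, and was called lower in alpha than in beta cells (-0.72, SE 0.14, limma adjusted p = 0.0022). Acsl3, found on nascent lipid droplets, was 2.66 and 3.26 RPKM in delta, 2.76 to 3.03 RPKM in alpha and 2.85 to 5.85 RPKM in beta libraries. Its call in alpha over beta cells (-0.40, SE 0.15, limma adjusted p = 0.0454) was lost when any library but beta replicate 1 was left out.

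Acsl6, best known from brain, where it favours polyunsaturated fatty acids, was 11.5 and 12.1 RPKM in delta libraries, 3.06, 3.68 and 4.59 RPKM in alpha libraries, and 4.23, 4.39, 6.83, 6.87 and 6.51 RPKM in beta libraries. The delta libraries stood above all others, and alpha and beta libraries overlapped. It was called higher in delta than in beta cells (log2 fold change 0.96, SE 0.20, limma adjusted p = 0.00359) and in delta than in alpha cells (1.41, SE 0.22, adjusted p = 0.000887). Acsl4, which prefers arachidonic acid, was 16.8 and 15.4 RPKM in delta libraries, 15, 19.4 and 18.3 RPKM in alpha libraries, and 9.59, 10.3, 17.0, 21.2 and 20.8 RPKM in beta libraries, and was not called. The lowest beta values are replicates 1 and 2, whose titles bear the numbers 16 and 20, next to those of the delta libraries (17 and 21). Against these alone the log2 fold change of delta over beta was 0.64 (limma adjusted p = 0.00337), compared with 0.12 (adjusted p = 0.758) against all 5. The labels do not say what the numbers stand for.

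Acsl6 is the gene of the set with a match to the letters TCAAGGTCA, the extended site bound by estrogen-related receptors, which regulate genes of mitochondrial oxidation. The window from 250 bases before to 50 bases after 1 of its RefSeq starts is shown here because it is the single such match among the windows of the set (chr11:54303574-54303873, GRCm38.p6, plus strand). The first capitals are the match, read on the minus strand and beginning 167 bases before the start, and the second are a CCAAT box.
Acsl6: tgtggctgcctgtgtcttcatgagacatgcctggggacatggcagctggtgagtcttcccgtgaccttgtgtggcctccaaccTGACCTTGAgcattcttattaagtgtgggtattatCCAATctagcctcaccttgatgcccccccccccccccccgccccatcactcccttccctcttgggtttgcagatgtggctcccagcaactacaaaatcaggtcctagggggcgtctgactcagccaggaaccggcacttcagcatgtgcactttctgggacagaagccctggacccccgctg
RefSeq windows of this kind, 29 in all, were available for 26 of the 31 genes. Some genes have more than 1 window, so the counts of genes below are not shares of windows. Searched on both strands, TCAAGGTCA was in 0.423% of all 32851 windows of the mouse genome. The direct repeat AGGTCANAGGTCA, bound by PPAR and RXR dimers, was in no window of the 26 genes and in 0.0396% of all windows. GCGCANGCGC, bound by nuclear respiratory factor 1, was in those of Etfb and Etfdh and in 4.6% of all. The cyclic AMP response element TGACGTCA (1.79% of all) and TATAAA (13.6% of all) were in none, and CCAAT was in those of 13 of the 26 genes and in 37.4% of all windows. TCAAGGTCA and AGGTCANAGGTCA share the letters AGGTCA, and a match is only a match of letters.

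Of the 3 tested genes of the carnitine shuttle, none was called against beta cells in delta or alpha cells as deposited. Of all tested genes, 37.4% were called higher and 13.3% lower in delta cells, and 23.7% higher and 30.3% lower in alpha cells. After median-ratio scaling 2 of the 3 were called lower in delta and 1 lower in alpha than in beta cells. These counts stood beside 3096 and 3680 of all tested genes. Cpt1a, the carnitine palmitoyltransferase of the outer mitochondrial membrane that is inhibited by malonyl-CoA and commits fatty acids to oxidation, was 13.9 and 9.74 RPKM in delta libraries, 8.75, 12.4 and 9.94 RPKM in alpha libraries, and 11.9, 9.88, 16.0, 14.8 and 16.4 RPKM in beta libraries. The groups overlapped and no difference was called (limma adjusted p = 0.410 for delta over beta and 0.0979 for alpha over beta). After median-ratio scaling the gene was called lower in delta (-0.49, adjusted p = 0.0255) and in alpha cells than in beta cells. Its muscle form Cpt1b had 5 and 0 reads in delta libraries, 3, 2 and 5 reads in alpha libraries, and 1, 1, 0, 0 and 2 reads in beta libraries, and was not tested. Cpt2, which re-forms acyl-CoA inside, was 20.7 and 20.0 RPKM in delta, 18.9 to 21.5 RPKM in alpha and 19.9 to 26.9 RPKM in beta libraries and was not called. It was called lower in delta than in beta cells after median-ratio scaling (-0.49, limma adjusted p = 0.0147) and with totals without hormone genes (-0.43, adjusted p = 0.0171), and lower in alpha than in beta cells without beta replicate 4 (-0.28, adjusted p = 0.034). Slc25a20, the carnitine-acylcarnitine exchanger, was 14.1 and 12.4 RPKM in delta, 9.55 to 11.6 RPKM in alpha and 9.39 to 12.4 RPKM in beta libraries. It was called higher in delta than in alpha cells (log2 fold change 0.35, SE 0.12, limma adjusted p = 0.041), a call lost under median-ratio scaling and when any of 6 libraries was left out.

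The acyl-CoA dehydrogenases, which open each turn of the cycle and differ in the chain length they prefer, had a sum of 103 RPKM in both delta libraries, 70.8 to 72.2 RPKM in alpha libraries and 70.7 to 77.9 RPKM in beta libraries. After median-ratio scaling it was 85.9 and 88.5 RPKM in delta libraries, 72.8 to 79.7 RPKM in alpha libraries and 69.5 to 90.3 RPKM in beta libraries, so that delta and beta libraries overlapped. Of the 4 genes, 3 were called higher in delta than in beta cells, the same 3 were called higher in delta than in alpha cells, and none was called between alpha and beta cells, beside 37.4% of all tested genes called higher against beta and 32.1% against alpha cells. After median-ratio scaling 2 were called higher against beta cells, Acadl and Acadm, and 1 against alpha cells, Acadm. Acadm, the medium-chain enzyme, was 13.8 and 14.7 RPKM in delta libraries, 8.22, 7.33 and 8.29 RPKM in alpha libraries, and 5.42, 6.87, 7.48, 7.37 and 8.09 RPKM in beta libraries. Its log2 fold change was 0.94 for delta over beta (SE 0.13, limma adjusted p = 0.000329) and 0.75 for delta over alpha (SE 0.14, adjusted p = 0.00282), and both calls were kept after median-ratio scaling and without either delta library.

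Acadl, the long-chain enzyme, was 32.3 and 33.3 RPKM in delta libraries, 20.6, 22.0 and 22.2 RPKM in alpha libraries, and 18.5, 18.2, 24.5, 19.9 and 24.0 RPKM in beta libraries. The delta libraries lay above all others. The log2 fold change was 0.63 for delta over beta (SE 0.13, limma adjusted p = 0.00387) and 0.58 for delta over alpha (SE 0.14, adjusted p = 0.0114). The delta over alpha call was lost after median-ratio scaling (0.28) and without either delta library. Acadvl, the very-long-chain enzyme, was 47.5 and 45 RPKM in delta libraries, 33.6 to 34.7 RPKM in alpha libraries and 32.9 to 42.0 RPKM in beta libraries. Its log2 fold change over beta cells of 0.30 (SE 0.09, limma adjusted p = 0.0242) was 0.01 after median-ratio scaling, and that over alpha cells of 0.44 (SE 0.10, adjusted p = 0.00874) was 0.13, neither of them called. Both calls were also lost without either delta library. Acads, the short-chain enzyme, was 9.61 and 10.3 RPKM in delta, 7.24 to 9.35 RPKM in alpha and 8.12 to 10.1 RPKM in beta libraries and was not called.

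Hadh showed the largest difference of the 30 tested genes. It encodes the mitochondrial short-chain 3-hydroxyacyl-CoA dehydrogenase, which oxidises the hydroxyl group in the third step of the cycle, and human loss of the gene is known to cause hyperinsulinism. It lies on chromosome 3 (131233419 to 131272101, minus strand, GRCm38), and its exons overlap those of no other annotated gene. Hadh was 174 and 192 RPKM in delta libraries, 12.6, 10.3 and 9.43 RPKM in alpha libraries, and 325, 388, 283, 277 and 246 RPKM in beta libraries, which rested on 6276 and 6381 reads, 294 to 377 reads, and 8989 to 16955 reads. All 3 types were separate, with every alpha library far below the rest. The means were 183 ± 13.1, 10.8 ± 1.65 and 304 ± 55 RPKM (SD, n = 2, 3 and 5), at rank 177, 5462 and 84 among all genes of delta, alpha and beta cells.

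By limma with Benjamini-Hochberg adjustment the log2 fold change of Hadh was -4.70 for alpha over beta (SE 0.16, adjusted p = 4.05e-08) and 3.98 for delta over alpha (SE 0.19, adjusted p = 8.83e-07). The mean RPKM of beta cells was 28.1 times that of alpha cells. Alpha libraries held 3.10% to 4.16% of the beta mean of Hadh and 0.648% to 0.821% of the beta mean of Ins2. They held 5.15% to 6.91% of the delta mean of Hadh and 1.91% to 5.19% of the delta mean of Sst. How much of the alpha level of Hadh came from delta or beta cells in the sort was not tested. Delta cells were lower than beta cells by a smaller step (log2 fold change -0.72, SE 0.17, adjusted p = 0.00817), a call lost without delta replicate 1 (adjusted p = 0.108). Delta libraries held 57.2% and 63.3% of the beta mean of Hadh, and 0.851% and 1.20% of that of Ins2.

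The RefSeq promoter window of Hadh is shown because no other gene of the set differed as much (chr3:131272052-131272351, GRCm38.p6, minus strand). Capitals mark its CCAAT box, which begins 239 bases before the start and is the only match there to the motifs searched.
Hadh: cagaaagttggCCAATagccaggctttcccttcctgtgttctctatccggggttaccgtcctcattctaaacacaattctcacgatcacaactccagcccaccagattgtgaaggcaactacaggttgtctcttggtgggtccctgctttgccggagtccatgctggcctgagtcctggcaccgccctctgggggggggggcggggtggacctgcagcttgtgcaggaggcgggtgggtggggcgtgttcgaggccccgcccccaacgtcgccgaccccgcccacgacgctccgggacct

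The neighbouring enzymes of the same cycle differed less between alpha and beta cells, though mostly in the same direction. Of the 5 hydratase, hydroxyacyl-CoA dehydrogenase and thiolase genes, Hadh included, 4 were called lower in alpha than in beta cells, beside 30.3% of all tested genes. Hadha and Hadhb encode the alpha and beta subunits of the trifunctional protein of the inner mitochondrial membrane, which carries out the hydratase, dehydrogenase and thiolase steps on long chains. Hadha was 49.1 and 50.6 RPKM in delta libraries, 28.9, 29.2 and 30.5 RPKM in alpha libraries, and 38.2, 43.2, 37.6, 36.6 and 40 RPKM in beta libraries, with no overlap between types. The log2 fold change was 0.35 for delta over beta (SE 0.08, limma adjusted p = 0.00709), -0.38 for alpha over beta (SE 0.07, adjusted p = 0.00232) and 0.73 for delta over alpha (SE 0.09, adjusted p = 0.000251). After median-ratio scaling delta over beta was 0.06 and delta over alpha 0.42, neither of them called. The delta over beta call was also lost without either delta library. The RPKM ratio of Hadh to Hadha, which no scaling of libraries changes, was 3.54 and 3.79 in delta libraries, 0.437, 0.354 and 0.309 in alpha libraries, and 8.49, 8.98, 7.53, 7.55 and 6.14 in beta libraries.

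Hadhb was 11.0 and 10.5 RPKM in delta libraries, 8.06, 6.99 and 7.49 RPKM in alpha libraries, and 7.46 to 9.36 RPKM in beta libraries. It was called higher in delta than in beta cells (log2 fold change 0.35, SE 0.11, limma adjusted p = 0.0268) and than in alpha cells (0.46, SE 0.12, adjusted p = 0.0156), both calls being lost after median-ratio scaling and without either delta library, and the second also without alpha replicate 3. The ratio of Hadha to Hadhb stayed within 3.59 and 5.58 in all 10 libraries. The pair are neighbours transcribed in opposite directions, with 72 bases between their RefSeq starts, so that 228 bases of their 300-base windows are the same. The Hadhb window (chr5:30155003-30155302, GRCm38.p6, plus strand) is shown with the bases between the starts in capitals, because it is the start region of both subunits. It holds none of the motifs searched.
Hadhb: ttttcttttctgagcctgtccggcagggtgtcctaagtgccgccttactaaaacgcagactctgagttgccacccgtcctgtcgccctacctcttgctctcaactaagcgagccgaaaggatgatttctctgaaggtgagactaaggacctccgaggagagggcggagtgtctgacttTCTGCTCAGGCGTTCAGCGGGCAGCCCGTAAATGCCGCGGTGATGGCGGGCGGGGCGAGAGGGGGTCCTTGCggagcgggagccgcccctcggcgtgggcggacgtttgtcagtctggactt

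Echs1, the short-chain enoyl-CoA hydratase, was 39.0 and 39.3 RPKM in delta libraries, 28.0, 25.3 and 23.6 RPKM in alpha libraries, and 45.1, 38.6, 42.9, 46.4 and 37.6 RPKM in beta libraries. The alpha libraries lay below the rest, and delta values fell within the beta range. The log2 fold change was -0.72 for alpha over beta (SE 0.09, limma adjusted p = 0.00017) and 0.61 for delta over alpha (SE 0.11, adjusted p = 0.00239), the second being lost after median-ratio scaling. Acaa2, a mitochondrial thiolase of the last step, was 8.35 and 8.65 RPKM in delta libraries, 8.19, 8.45 and 8.98 RPKM in alpha libraries, and 16.8, 13.2, 16.0, 11.2 and 10.6 RPKM in beta libraries. All beta libraries were above the rest. It was called lower in delta (log2 fold change -0.61, SE 0.15, limma adjusted p = 0.0097) and in alpha cells (-0.64, SE 0.14, adjusted p = 0.00382) than in beta cells, the delta call being lost without delta replicate 1 (adjusted p = 0.141).

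Unsaturated fatty acids need auxiliary enzymes, and these did not move together. Decr1, the mitochondrial 2,4-dienoyl-CoA reductase, was 8.91 and 9.35 RPKM in delta libraries, 4.17, 3.76 and 3.99 RPKM in alpha libraries, and 7.44, 7.91, 7.99, 7.50 and 7.95 RPKM in beta libraries. The alpha libraries held about the same low level, away from all others. Its log2 fold change was -0.81 for alpha over beta (SE 0.08, limma adjusted p = 4.81e-05) and 1.02 for delta over alpha (SE 0.10, adjusted p = 6.77e-05), both called under both scalings. After median-ratio scaling the value of delta over beta, not called, was -0.05, against 0.21 as deposited. Eci2, an enoyl-CoA isomerase found in mitochondria and peroxisomes, ran the other way, with 55.4 and 52.7 RPKM in delta libraries, 50.7, 50.9 and 53.4 RPKM in alpha libraries, and 38.8, 32.1, 45.1, 37.7 and 39.6 RPKM in beta libraries. It was called higher in delta (log2 fold change 0.47, SE 0.11, limma adjusted p = 0.00726) and in alpha cells (0.39, SE 0.10, adjusted p = 0.0091) than in beta cells. The delta call was lost after median-ratio scaling (0.18) and without either delta library, and the alpha call without alpha replicate 3 (adjusted p = 0.0989). Eci1, the mitochondrial isomerase, was 22.9 and 22.2 RPKM in delta, 14.9 to 17.4 RPKM in alpha and 16.4 to 20.5 RPKM in beta libraries. It was called higher in delta than in alpha cells (log2 fold change 0.48, SE 0.12, limma adjusted p = 0.0125). That call was lost after median-ratio scaling (0.18), without either delta library and without alpha replicate 3.

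Of the peroxisomal pair, Ehhadh, the bifunctional enzyme of peroxisomal oxidation, was 8.42 and 9.05 RPKM in delta libraries, 3.46, 4.55 and 4.34 RPKM in alpha libraries, and 7.66, 9.98, 8.21, 9.42 and 8.23 RPKM in beta libraries. Alpha libraries again lay below the others, while delta and beta libraries overlapped. The log2 fold change was -0.89 for alpha over beta (SE 0.11, limma adjusted p = 0.000132) and 0.91 for delta over alpha (SE 0.13, adjusted p = 0.000638). Acaa1a, a peroxisomal thiolase, was 22.7 and 27.7 RPKM in delta, 20.8 to 23.0 RPKM in alpha and 25.3 to 36.1 RPKM in beta libraries. Its call as lower in alpha than in beta cells (-0.43, SE 0.12, limma adjusted p = 0.016) was lost after median-ratio scaling and without alpha replicate 3 (adjusted p = 0.103), and is uncertain also because reads may be shared with its close copy Acaa1b.

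Electron transfer flavoprotein takes electrons from the acyl-CoA dehydrogenases and passes them to its oxidoreductase Etfdh. Etfb, its beta subunit, was 55.8 and 54.4 RPKM in delta libraries, 51.2, 47.1 and 39.6 RPKM in alpha libraries, and 88.3, 72.9, 74.4, 64.4 and 61.2 RPKM in beta libraries. Every beta library was above the rest. It was called lower in delta (log2 fold change -0.40, SE 0.11, limma adjusted p = 0.0144) and in alpha cells (-0.70, SE 0.10, adjusted p = 0.000304) than in beta cells, the delta call being lost without delta replicate 1 (adjusted p = 0.197). Its partner Etfa, the alpha subunit, was 38.5 and 37.6 RPKM in delta, 30.3 to 32.9 RPKM in alpha and 28.4 to 38.9 RPKM in beta libraries and was not called. Against the beta libraries numbered next to the other type alone, it was called higher in delta (log2 fold change 0.39, limma adjusted p = 0.0049) and lower in alpha cells (-0.21, adjusted p = 0.0389). The RPKM ratio of Etfb to Etfa was 1.45 in both delta libraries, 1.24 to 1.56 in alpha libraries and 1.68 to 3.10 in beta libraries, with the highest values in beta replicates 1 and 2 (3.10 and 2.48). Etfdh was 23.5 and 22.0 RPKM in delta, 18.8 to 19.3 RPKM in alpha and 16.9 to 21.4 RPKM in beta libraries and was not called.

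Over the 31 genes the Pearson correlation of log2(RPKM + 1) was 0.993 between the delta libraries, 0.987 to 0.994 among alpha libraries and 0.963 to 0.995 among beta libraries. Between types it was 0.735 to 0.796 for delta with alpha, 0.888 to 0.942 for delta with beta and 0.750 to 0.858 for alpha with beta. Leaving out Hadh and Lpl raised the values of delta with alpha to 0.932 to 0.955 and those of alpha with beta to 0.899 to 0.960. These are descriptions across genes, which are not independent replicates.

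Sex made little difference to the set. None of the 30 genes was called between female and male libraries by limma with Benjamini-Hochberg adjustment, where 0.0472% of all tested genes were. At an unadjusted p under 0.05 there were 2, Cd36 (log2 difference female minus male 0.29, SE 0.10, adjusted p = 0.77) and Etfb (-0.24, SE 0.08, adjusted p = 0.77). The difference between alpha and beta cells was not called to depend on sex for any gene of the set, where 0% of all tested genes were called. Acaa2 was the 1 gene with an unadjusted p under 0.05 there (0.57, SE 0.22, limma adjusted p = 1). Delta cells had 1 library of each sex and alpha cells 1 female library, which limits both tests.

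Genes next to these steps were described by the same fit, and their counts stand beside the shares of all tested genes given above for each comparison and direction. Of 8 tested fatty acid carriers and transporters, 2 were called higher and 2 lower for delta against beta cells, 2 higher and 3 lower in alpha than in beta cells, and 1 higher and 1 lower in delta than in alpha cells. After median-ratio scaling these counts became 2 and 2, 2 and 2, and 0 and 1. Slc27a2, a transporter with very-long-chain acyl-CoA synthetase activity, was 1.01 and 0.772 RPKM in delta libraries, 3.10, 3.40 and 4.44 RPKM in alpha libraries and at most 0.0651 RPKM in beta libraries (alpha over beta log2 fold change 2.20, SE 0.11, limma adjusted p = 4.06e-07). Of 11 tested lipid droplet and lipase genes, 4 rose and 2 fell in delta against beta cells, 3 rose and 4 fell in alpha against beta cells, and 5 rose and 0 fell in delta against alpha cells. The same counts were 3 and 4, 2 and 4, and 4 and 1 after median-ratio scaling. Cidea, a lipid droplet protein, had a log2 fold change of 2.81 (SE 0.15, limma adjusted p = 7.70e-07) and Lipa, the lysosomal lipase, one of -1.26 (SE 0.13, adjusted p = 6.60e-05) for delta over beta.

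Of 14 other genes of acyl-CoA handling, 4 were called higher and 4 lower for delta against beta cells, 2 higher and 5 lower in alpha than in beta cells, and 5 higher and 0 lower in delta than in alpha cells. With median-ratio scaling they were 4 and 7, 2 and 5, and 1 and 2. Cpt1c, the brain-type relative of Cpt1a in the endoplasmic reticulum, was 10.3 and 8.06 RPKM in delta libraries, 11.3, 11.9 and 14.6 RPKM in alpha libraries, and 2.33 to 4.04 RPKM in beta libraries. Its log2 fold change was 1.36 for delta over beta (SE 0.18, limma adjusted p = 0.00028) and 1.79 for alpha over beta (SE 0.16, adjusted p = 1.96e-05). Acot7, an acyl-CoA thioesterase, was 5.40 and 8.37 RPKM in delta libraries, 0.318 to 0.462 RPKM in alpha libraries and 0.176 to 0.575 RPKM in beta libraries (delta over beta 2.54, SE 0.17, limma adjusted p = 3.79e-06).

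Among 19 other genes of mitochondrial acyl-CoA oxidation and ketone body metabolism, 2 were called higher and 3 lower for delta against beta cells, 0 higher and 12 lower in alpha than in beta cells, and 7 higher and 1 lower in delta than in alpha cells. After median-ratio scaling these counts were 0 and 6, 0 and 8, and 0 and 3. Oxct1, which lets cells use ketone bodies, was 14.3 and 16.5 RPKM in delta libraries, 20.5, 17.3 and 16.7 RPKM in alpha libraries, and 34.3 to 49.3 RPKM in beta libraries (delta over beta -1.39, SE 0.14, limma adjusted p = 4.64e-05; alpha over beta -1.15, SE 0.12, adjusted p = 6.29e-05). Of 15 other peroxisomal genes, 3 were called higher and 0 lower for delta against beta cells, 1 higher and 9 lower in alpha than in beta cells, and 9 higher and 0 lower in delta than in alpha cells. Median-ratio scaling made these 2 and 5, 1 and 10, and 4 and 0. Cat, which encodes catalase, was 8.22 and 8.40 RPKM in delta libraries, 0.564, 1.11 and 0.832 RPKM in alpha libraries, and 3.06 to 5.20 RPKM in beta libraries (delta over alpha 2.35, SE 0.21, limma adjusted p = 2.90e-05).

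Regulators of the pathway went in both directions, with 3 of 15 called higher and 5 lower for delta against beta cells, 5 higher and 3 lower in alpha than in beta cells, and 1 higher and 3 lower in delta than in alpha cells. Median-ratio scaling gave 2 and 5, 8 and 3, and 1 and 3. Pdk4, the kinase that shuts off pyruvate dehydrogenase when fatty acids are burnt, was 14 and 13 RPKM in delta libraries, 126, 112 and 101 RPKM in alpha libraries, and 0.221 to 1.33 RPKM in beta libraries. Its log2 fold change was 3.14 for delta over beta (SE 0.21, limma adjusted p = 3.30e-06) and 6.12 for alpha over beta (SE 0.19, adjusted p = 3.35e-08). Pparg, a nuclear receptor for fatty acids, was 2.52 and 2.06 RPKM in delta libraries, 0.997, 1.61 and 0.809 RPKM in alpha libraries, and 13.3 to 17.1 RPKM in beta libraries (delta over beta -2.30, SE 0.15, limma adjusted p = 3.29e-06; alpha over beta -2.96, SE 0.14, adjusted p = 2.97e-07).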

How the data were processed

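The authors deposited RPKM values of 19213 gene entries in 10 libraries as 1 table. The tools named in the submitters' processing notes are STAR 2.4, featureCounts and edgeR 3.12.0, and the genome build is GRCm38.p3. Neither the annotation nor the handling of shared reads is given in the sources used here. The TruSeq RNA v2 kit, named per the labels' protocols, does not mark the strand. Exons of 10 of the 31 genes overlap another gene on the opposite strand and those of 3 more overlap one on the same strand, so reads there cannot be told apart.

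Library totals and reads per gene were recovered from the steps between low RPKM values. The test was limma 3.58.1 (R 4.3.3) on log2(RPKM + 1), its trend option on, with terms for cell type and sex, over genes that reached 1 RPKM in 2 or more libraries. The interaction with sex was fitted in alpha and beta libraries alone. Alternatives were a pseudocount of 0.1, no filter, median-ratio scaling, totals without 7 hormone genes, no sex term, a fit of only the types compared, fewer beta libraries, removal from delta libraries of the alpha share that Gcg implies, and leaving out each library. A fit with a block for adjacent title numbers was added after the data were seen. Replicate numbers within a type follow the order of deposition. The 31 genes, the related lists and the marker lists were chosen with earlier results of these data known. Any of the 31 genes could be named, and of each related list up to 3 called genes per direction and comparison with the largest fold change, and of each marker list the highest gene of each type; Acaa1b, Adipoq, Plin1 and Cidec were named outside this rule after their values were seen. The sequences are from RefSeq (GRCm38.p6) and the gene coordinates from GENCODE (GRCm38), matched by symbol, 1-based.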

Additional observations from a re-analysis of the deposited data

How the results depend on the processing

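Of the 30 tested genes, 9 were called higher and 5 lower for delta against beta, beside 4750 and 1692 of all tested genes. After median-ratio scaling these counts became 4 and 11, beside 3120 and 3096 of all tested genes. With totals that leave out 7 hormone genes they became 4 and 9, beside 3401 and 2798. The count called higher in delta than in alpha cells, 13 beside 4076, became 6 beside 1846 and 7 beside 1872 under these alternatives. Leaving out each library in turn gave 3 to 10 higher and 2 to 6 lower for delta against beta, 1 to 3 higher and 10 to 13 lower for alpha against beta, and 8 to 15 higher and 1 lower for delta against alpha. The 1 higher call in alpha against beta, Lpl, was found without alpha replicate 3. The counts for sex and for its interaction with cell type stayed at 0 in these fits. Of 90 differences (30 genes in 3 comparisons), 90 kept their call and direction with a pseudocount of 0.1, 87 without the filter, 87 without the sex term, 83 in fits of the types compared, 69 with median-ratio scaling and 73 without hormone genes in the totals. Subtracting an alpha share kept 57 of 60, and using beta libraries numbered next to the other type kept 50 of 60. None of the differences called as deposited changed sign in these fits. With only those beta libraries, calls of Fabp3 and Acadvl (delta against beta) and of Fabp5 (alpha against beta) were lost, and Acsl4, Acaa1a, Etfa and Etfdh (delta against beta) and Acsl6, Cpt1a and Etfa (alpha against beta) were newly called. The labels give no replicate numbers shared between types, but each delta or alpha title number stands 1 above that of a beta library of the same sex. A fit with a replicate block for these 4 number pairs, in place of the sex term, was chosen after the data were seen. It gave 10 higher and 5 lower for delta against beta, beside 6085 and 1698 of all tested genes. For alpha against beta it gave 2 higher and 14 lower, beside 2431 and 4244 of all tested genes. For delta against alpha it gave 15 higher and 1 lower, beside 5349 and 561 of all tested genes. It kept 72 of the 90 differences; 7 calls were lost, 10 were gained, and Acsl4 in delta against alpha, not called as deposited (-0.14), was called higher (0.74). Deviations from the type means of libraries paired in this way correlated at -0.22 to 0.46 over the tested genes. Those of libraries not paired in this way correlated at -0.56 to 0.40. Deviations of 2 delta libraries from their mean are mirror images of each other, so these correlations cannot decide whether the libraries are paired. The main fit did not pair them, although beta cells came from islets that also gave delta or alpha cells. With 294 reads or more per library Hadh is not limited by depth, whereas Cpt1b, with at most 5, is.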
